A study of Mus musculus with 2 samples.

Results

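The genes described here are 5 transcription factors associated with stem-like and quiescent T cells: Tcf7, Lef1, Satb1, Myb and Foxp1. They were taken by name from the 12798 genes of a UMI count table, in which a UMI (unique molecular identifier) marks 1 captured transcript molecule. Their levels were followed over 8 hashtags, 2 conditions and the 12 fine clusters of the authors' annotation. The cells were colonic lamina propria CD8 T cells of mice with colitis induced by T cell transfer. The hosts were Rag1 KO mice, which make no mature T or B cells of their own, and mice were 8 to 12 weeks old at the start of the transfer. Every host received 100000 splenic wildtype naive CD4+ T cells (CD45RBhigh, CD25-) together with 500000 splenic TCRb+ CD8b+ CD4- T cells, and colons were taken 6 to 10 weeks later. The CD8 T cells came from Bcl6fl/fl Cd8aCre donors or from Bcl6fl/fl donors. Both donor genotypes carry floxed Bcl6 alleles, and Cre in the first is driven by Cd8a sequences. The annotation names the conditions Crep (4 hashtags, 4157 cells) and Cren (4 hashtags, 4405 cells). They were read as Cre-positive and Cre-negative, which no source spells out. The deposited annotation heads its column of hashtag names with the word donor, and whether each was 1 mouse is not given in the sources used here. The p-values measure only the spread between hashtags of 1 pooled library, and this spread may be technical.

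Tcf7 encodes TCF-1, an HMG-box factor that binds DNA at TCF/LEF sites, with beta-catenin or with Groucho/TLE corepressors. It marks naive, memory and stem-like CD8 T cells, which keep the capacity to renew, and its level drops as cells become effectors. Lef1 encodes the closely related HMG-box factor LEF-1. Satb1 encodes a chromatin organiser needed in thymocyte development, Myb encodes c-Myb, which supports stem-like CD8 T cells in mice, and Foxp1 encodes a forkhead factor that keeps naive T cells quiescent.

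On GRCm38, Tcf7 (ENSMUSG00000000782.15) lies on the minus strand of chromosome 11 from 52252371 to 52283014. Lef1 (ENSMUSG00000027985.14) lies on the plus strand of chromosome 3 from 131110471 to 131224356. Satb1 (ENSMUSG00000023927.15) is on the minus strand of chromosome 17 from 51736187 to 51833290. Myb (ENSMUSG00000019982.15) is on the minus strand of chromosome 10 from 21124935 to 21160984, and Foxp1 (ENSMUSG00000030067.17) on the minus strand of chromosome 6 from 98925338 to 99522721. Tcf7 overlaps Gm26551 on its own strand and A630014C17Rik on the other strand, and both are rows of the table. Lef1 overlaps Gm43352 and Foxp1 overlaps Gm20696 there as well. Whether the counting separated such reads is not given in the sources used here.

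RefSeq (GRCm38.p6) gave 15 windows of 300 bases for the 5 genes, 250 before and 50 after each annotated start. They were searched on both strands for the TCF/LEF letters CTTTG followed by 2 letters that are each A or T. A match stood in 6 of the 15 windows, against 16.9% of 32851 windows of all genes: 0 of 2 for Tcf7, 1 of 4 for Lef1, 2 of 5 for Satb1, 1 of 1 for Myb and 2 of 3 for Foxp1. Both Satb1 windows hold the same single match, because they overlap, so the 8 matches over all windows lie at 7 positions. The motif TTCNNNGAA, shared by BCL6 and STAT factors, and able to overlap the first motif, stood in 0 of the 15, against 8.30% of all windows. A match is a run of letters, not a site. The 250 bases before the first Tcf7 start are shown because this gene had the largest difference between conditions of the 4 tested, and 1 Lef1 and 1 Foxp1 window because they hold matches, in capitals. They are chr11:52283015-52283264 (minus strand), chr3:131156044-131156293 (plus strand) and chr6:99266516-99266765 (minus strand), each 5′ to 3′ along its gene.
Tcf7: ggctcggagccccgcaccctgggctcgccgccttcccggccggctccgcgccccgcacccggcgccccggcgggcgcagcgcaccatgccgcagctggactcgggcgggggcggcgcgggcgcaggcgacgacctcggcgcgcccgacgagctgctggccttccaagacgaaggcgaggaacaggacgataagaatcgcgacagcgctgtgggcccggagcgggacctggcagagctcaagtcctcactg
Lef1: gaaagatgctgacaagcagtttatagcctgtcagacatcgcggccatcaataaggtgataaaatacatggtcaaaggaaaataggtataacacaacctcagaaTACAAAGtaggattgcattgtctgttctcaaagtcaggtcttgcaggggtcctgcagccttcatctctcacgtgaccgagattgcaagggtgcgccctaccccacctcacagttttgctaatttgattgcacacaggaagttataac
Foxp1: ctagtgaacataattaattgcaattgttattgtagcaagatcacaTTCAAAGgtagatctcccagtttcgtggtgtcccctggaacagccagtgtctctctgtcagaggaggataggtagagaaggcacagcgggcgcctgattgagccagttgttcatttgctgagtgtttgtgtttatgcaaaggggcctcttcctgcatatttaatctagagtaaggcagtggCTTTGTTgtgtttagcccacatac
The Tcf7 stretch holds no capitals, which says only that these letters are not in it. Its base 86 begins an ATG with 55 codons and no stop codon up to its end, and this is the known start of the full-length TCF-1 coding sequence. The stretch lies before an annotated start and outside the Tcf7 gene as placed here, which begins at 52283014 on the minus strand. Because it holds this coding start, it is not a promoter of the full-length form. Whether reads from this stretch were counted for Tcf7 is not given in the sources used here. UMIs are summed per gene, so they do not separate the 2 annotated Tcf7 starts.

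The table held 25614763 UMIs, between 2635241 and 4201265 per hashtag, with a median of 2764.5 per cell. CPM below (counts per 1e6) scales the UMIs of a gene to all UMIs of the hashtag, or, within a cluster, of the cells that hashtag has there. The median mitochondrial share per cell was 0.636% ± 0.0149 in Crep hashtags and 0.739% ± 0.0557 in Cren hashtags (SD, n = 4; exact two-sided permutation p = 0.0286, the smallest that 4 against 4 hashtags allow). Hashtag Crep 4 stood apart in its make-up, with 36.6% of its cells in fine cluster 7 and 31.8% in fine cluster 4. Bcl6, the floxed gene, stood at 29.3 ± 3.49 CPM in Crep and 17.5 ± 2.13 in Cren (SD over 4 hashtags; log2 fold change 0.75, SE 0.14, edgeR adjusted p = 0.0293). Gene-level 5′ counts do not show whether its floxed part was deleted, and every direction here is between the conditions as labelled.

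Tcf7 lay lower in Crep than in Cren. Its level was 80.7, 64.4, 80.9 and 39.1 CPM in Crep hashtags 1 to 4, against 168, 149, 118 and 175 CPM in Cren hashtags 1 to 4. The groups did not overlap, and Crep 4 was the lowest of all. Means were 66.3 ± 19.7 CPM in Crep and 152 ± 25.5 in Cren (SD, n = 4). These levels rest on 826 Tcf7 UMIs in Crep and 2031 in Cren. The log2 fold change was -1.19 (SE 0.23), and at an edgeR quasi-likelihood adjusted p of 0.0914 over 9653 genes it did not pass 0.05. Of those genes, 59 passed (0.611%), 26 of them lower in Crep (0.269%). Every Crep hashtag lay below every Cren hashtag in CPM for 3.41% of the tested genes, and the groups did not overlap in either direction for 6.68%. In bulk sums of this kind, fewer Tcf7-expressing cells and less Tcf7 RNA per cell cannot be told apart.

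The call on Tcf7 changed with the hashtags, the clusters and the tool used, and the cause was not tested. Without Crep 4 the log2 fold change was -1.01 (SE 0.13, edgeR adjusted p = 0.00431), a smaller difference with a smaller error. It was also past the threshold without fine cluster 7 in every hashtag (-1.03, SE 0.13, adjusted p = 0.00396) and without clusters 4 and 7 (-0.81, SE 0.13, adjusted p = 0.0104). Genes past the threshold in these fits were 0.429%, 0.27% and 0.371% of those tested. In each hashtag, the 11 clusters with cells of every hashtag (98.7% of cells) were also weighted by their shares of those cells. Tcf7 then stood at 84.9 ± 9.84 CPM in Crep and 134 ± 11.4 in Cren (SD, n = 4). That log2 fold change was -0.66 (SE 0.11, limma adjusted p = 0.0154; 0.176% of genes passed). This fit set no minimum of cells per hashtag and cluster. Fine cluster 7 held between 0.0905% and 0.690% of the cells of a Cren hashtag, so its Cren levels there rest on few cells. With DESeq2 the adjusted p was 8.7e-07 at a log2 fold change of -1.19, in a fit that called 1.15% of genes. With any 1 of the other 7 hashtags left out, the edgeR adjusted p ran from 0.0619 to 0.253 and the direction held.

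**Figure D1:**
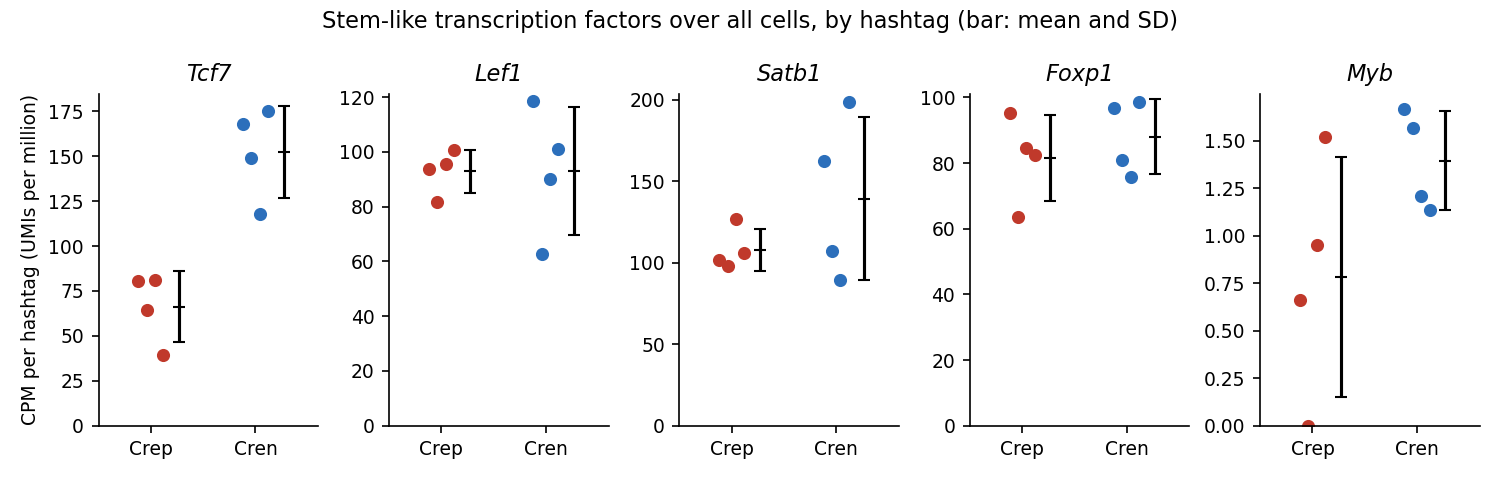
CPM of each gene per hashtag, with Crep (red) left of Cren (blue); points are hashtags, bars the mean and SD (n = 4), and each panel has its own scale from 0. For Tcf7 the 4 Crep points, 39.1 to 80.9, lie under the 4 Cren points, 118 to 175, while the groups overlap for the other 4 genes.

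The other factors did not separate by condition over all cells. Lef1 had 93.6, 81.7, 95.5 and 101 CPM in Crep hashtags and 119, 62.8, 90.0 and 101 CPM in Cren hashtags. The Crep values sat inside the range of the Cren values, with means of 92.8 ± 7.99 CPM in Crep and 93.1 ± 23.4 in Cren (SD over 4 hashtags; log2 -0.01, SE 0.17, edgeR adjusted p = 0.995). Its sign changed with the setting, from -0.16 to 0.13. Satb1 had 102, 97.8, 127 and 106 CPM in Crep hashtags and 162, 107, 89.7 and 198 CPM in Cren hashtags. Cren 1 and Cren 4 were high and Cren 3 was the lowest of all 8 (log2 -0.36, SE 0.27, adjusted p = 0.707). Foxp1 had 95.2, 63.6, 84.7 and 82.3 CPM in Crep hashtags and 96.9, 81.0, 75.7 and 98.5 CPM in Cren hashtags, and the ranges overlapped, with Crep 2 below every Cren hashtag (log2 -0.11, SE 0.12, adjusted p = 0.801). Myb was nearly absent, with 9 UMIs in Crep cells and 19 in Cren cells. The filter on low counts removed it, so 4 of the 5 genes were tested and none of the 4 passed in edgeR; Tcf7 alone had an unadjusted p under 0.05, as did 11.1% of all tested genes.

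Shares of cells with at least 1 UMI were compared after thinning every cell to 2000 UMIs, which left out 986 Crep and 937 Cren cells of lower depth. Tcf7 was detected in 13.4%, 11.8%, 15.8% and 5.36% of cells in Crep hashtags 1 to 4, against 25.8%, 23.7%, 18.9% and 27.8% in Cren hashtags 1 to 4. The 95% Wilson interval of Crep 4 was 3.93% to 7.27%, below that of each other hashtag, and covers counting error only. The mean share was 11.6% ± 4.47 in Crep and 24.0% ± 3.79 in Cren (SD, n = 4; exact two-sided permutation p = 0.0286, adjusted p over all genes = 0.485). A share below every Cren hashtag in all 4 Crep hashtags was seen for 3.06% of genes (5.89% for either direction), and while 569 of 9653 genes had an exact p under 0.05, 0 of them passed after adjustment. Unthinned, the share was 15.4% ± 5.94 in Crep and 31.1% ± 4.92 in Cren. Cells with a Tcf7 UMI held 1.15 ± 0.0172 of them at this depth in Crep and 1.29 ± 0.0816 in Cren. The highest Crep hashtag was at 1.17 and the lowest Cren hashtag at 1.2. How many other genes separate on this measure was not counted. The measure leaves out cells without a UMI, so it can rise with the share detected and is not independent of that share. For comparison, fine cluster 7, the cluster with the least Tcf7, had a UMI in 1.55% of 452 cells at the same depth.

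Lef1 had a UMI in 15.6% ± 1.31 of cells in Crep and 17.0% ± 3.26 in Cren (SD over 4 hashtags; exact permutation p = 0.457, adjusted p = 0.855). Satb1 had one in 17.5% ± 2.67 in Crep and 20.6% ± 5.64 in Cren (exact p = 0.343, adjusted p = 0.812). Foxp1 stood at 15.4% ± 3.25 in Crep and 14.4% ± 1.68 in Cren (exact p = 0.629, adjusted p = 0.925). Myb had one in 0.131% ± 0.105 in Crep and 0.117% ± 0.0968 in Cren (exact p = 0.800). At such counts no difference in Myb was detectable: Crep 2 had 0 of 882 cells and Cren 3 had 0 of 845 cells, and a count of 0 allows shares of cells with a UMI of up to 0.340% and 0.355%, which limits detection and not the number of cells that express Myb.

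The condition difference in Tcf7 was next taken within fine clusters where 3 or more hashtags of each condition had 20 cells or more. These were clusters 0, 1, 2, 3, 5 and 6. The clusters were made from the same cells' expression, so values within one are conditional on that grouping. Tcf7 had a negative log2 fold change in 6 of 6 clusters. Of 3437 genes tested in all 6, 6.9% were negative throughout. Tcf7 fell in 2 clusters, 0 and 5, past the threshold of each cluster's own fit, and 0.466% of those genes were called in 2 or more clusters.

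In cluster 5, Tcf7 stood at 190.4, 171 and 119 CPM in Crep hashtags 1 to 3, against 302, 241, 247 and 267 CPM in Cren hashtags 1 to 4. Crep 4 had under 20 cells there and was not used. The groups did not overlap, as for 9.79% of the genes tested in this cluster, and the log2 fold change was -0.85 (SE 0.18, edgeR adjusted p = 0.00248; 1.19% of 4044 genes passed, 0.668% lower in Crep). Without Crep 3 it did not pass (-0.62, adjusted p = 0.212). Cluster 5 held the cells richest in Slamf6, the surface marker of stem-like cells, at 57.1 CPM over all its cells, with Il7r, the survival receptor of memory cells, at 1088 CPM and Id3, a memory factor, at 47.0 CPM.

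In cluster 0, the levels were 103, 65.5, 74.7 and 83.3 CPM in Crep hashtags and 156, 136, 120.1 and 123 CPM in Cren hashtags, again apart, as for 5.18% of the genes tested there. The log2 fold change was -0.72 (SE 0.17, edgeR adjusted p = 0.0187; 0.98% of 5409 genes passed, 0.481% lower in Crep). It did not pass with DESeq2 (adjusted p = 0.193) or without Cren 1, Cren 2, Crep 2 or Crep 3 (adjusted p = 0.0679, 0.0505, 0.227 and 0.117). Cluster 0 was rich in Itgae, the gene of the tissue-resident integrin CD103, at 356 CPM over all its cells. Of other genes linked to tissue residency, Cxcr6 (691 against 418 CPM in all other cells) and Itga1 (160 against 86.2 CPM) were also higher. Cd69 was lower, at 159 against 204 CPM.

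In cluster 2, the other Itgae-rich cluster (331 CPM), Tcf7 stood at 107, 98.9, 160.1 and 175 CPM in Crep hashtags and 261, 193, 164 and 283 CPM in Cren hashtags, where Crep 4 exceeded Cren 3. The log2 fold change was -0.88 (SE 0.20, edgeR adjusted p = 0.0576; 0.28% of genes passed, 0.0801% lower in Crep). It passed without the filter on low counts (adjusted p = 2.5e-04) and without Cren 2, Cren 3 or Crep 3 (adjusted p = 0.0206, 0.0137 and 0.0458). In cluster 1 the levels were 130.3 ± 21.6 CPM in Crep and 173 ± 22.1 in Cren (SD, n = 4), with 1 of the 4 Crep hashtags above 2 of the 4 Cren hashtags (log2 -0.48, SE 0.16, adjusted p = 0.411; 0.173% passed, 0.0649% lower in Crep).

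In cluster 3 Tcf7 stood at 49.5 ± 29.0 CPM in Crep and 84.0 ± 34.7 in Cren (SD over 4 hashtags; log2 -0.62, SE 0.37, edgeR adjusted p = 0.937). In cluster 6 it stood at 61.4 ± 23.7 CPM in Crep and 91.9 ± 27.3 in Cren (SD over 4 hashtags; log2 -0.41, SE 0.25, adjusted p = 0.946). At most 0.0269% of genes passed in either of these fits. The condition effects in the 2 largest clusters were compared directly, with the hashtag as a block: the Tcf7 effect in cluster 1 minus that in cluster 0 was 0.28 (SE 0.22, edgeR adjusted p = 0.942; 0.134% of 6703 genes passed). A different size of effect in these 2 clusters was therefore not shown.

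**Figure D2:**
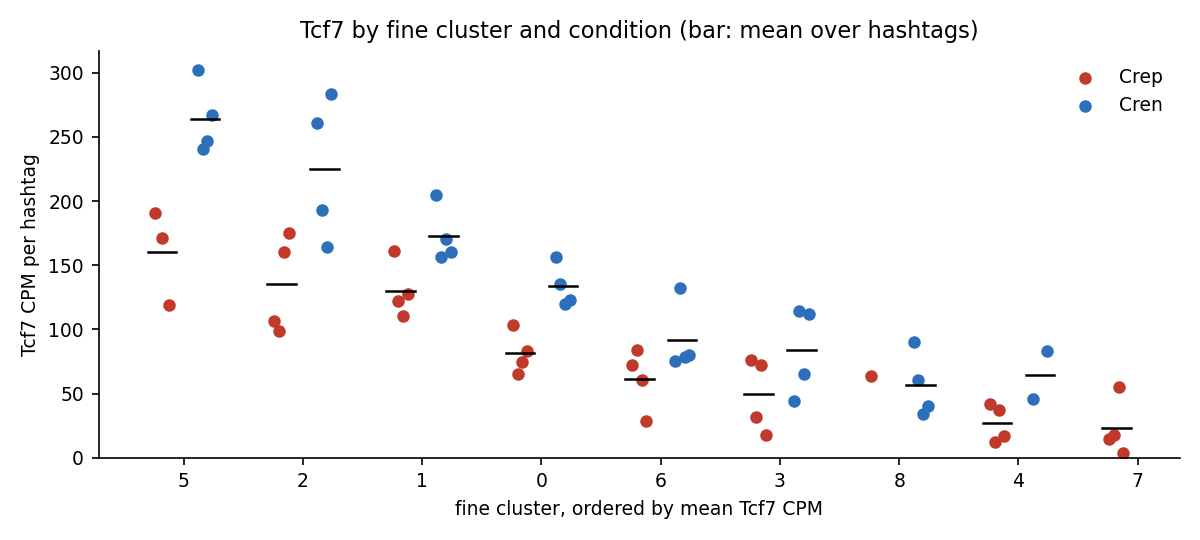
Tcf7 CPM per hashtag (y axis, from 0) in 9 fine clusters ordered by mean Tcf7 (x axis), Crep (red) left of Cren (blue), with bars at the mean of 2 or more hashtags. Hashtags with under 20 cells in a cluster are left out, which leaves 1 Crep point in cluster 8 and no Cren point in cluster 7; in cluster 5 Crep points reach 190.4 and Cren points start at 241.

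The other 3 tested factors passed in none of the 6 clusters, 18 comparisons in all, of which 2 had an unadjusted p under 0.05. Satb1 came nearest in cluster 5, at 118 ± 11.9 CPM in 3 Crep hashtags and 183 ± 63.2 CPM in 4 Cren hashtags (SD; log2 -0.71, SE 0.22, edgeR adjusted p = 0.111). The groups overlapped there, since Crep 2, at 131 CPM, exceeded Cren 2, at 124 CPM. It passed without the filter on low counts (adjusted p = 0.0410) and without Cren 2 or Cren 3 (adjusted p = 0.0322 and 0.0210). Foxp1 in cluster 1 had 83.4, 56.0, 84.8 and 79.4 CPM in Crep hashtags and 132, 97.5, 93.6 and 112 CPM in Cren hashtags, without overlap, as for 3.66% of the genes tested in that cluster (log2 -0.53, SE 0.19, adjusted p = 0.527). Lef1 in cluster 0 had 69.5, 69.2, 66.2 and 76.3 CPM in Crep hashtags and 57.6, 38.0, 57.5 and 61.6 CPM in Cren hashtags, the Crep values above all Cren values in a cluster where 5.18% of genes did not overlap (log2 0.39, SE 0.20, adjusted p = 0.602). Lef1 was negative in 3 and positive in 3 of the 6 clusters, Foxp1 likewise, and Satb1 was negative in 5 of 6.

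**Figure D3:**
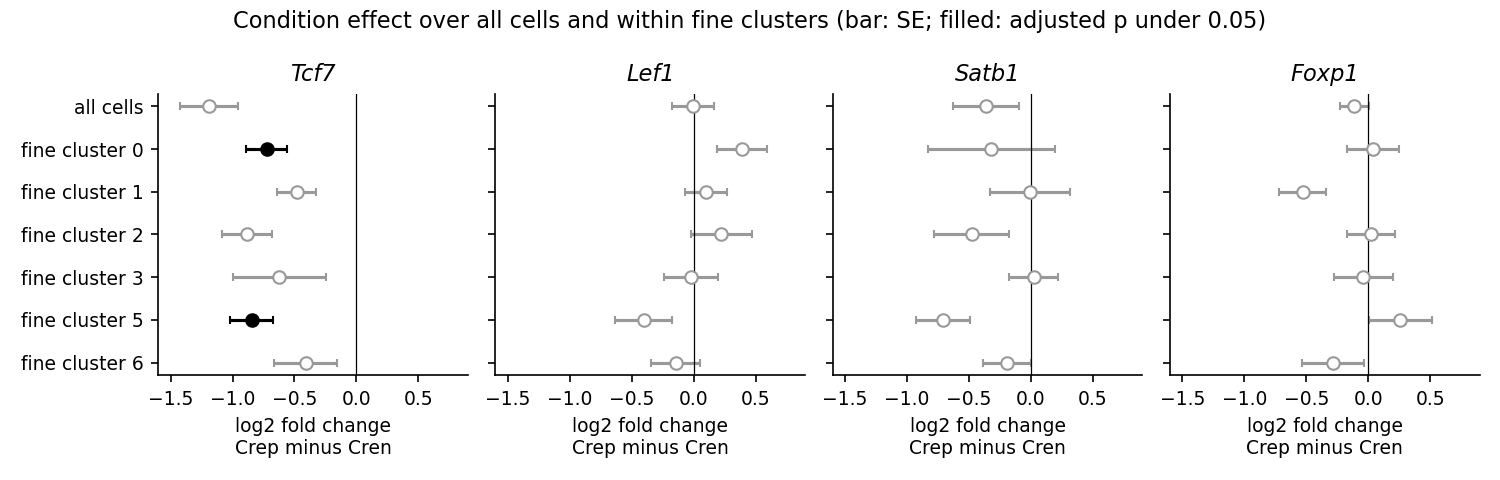
Log2 fold changes, Crep minus Cren (x axis), with SE, over all cells and within 6 fine clusters (y axis); filled points passed an edgeR adjusted p of 0.05. All 7 Tcf7 points lie left of 0 and those of clusters 0 and 5 are filled, while the points of Lef1 and Foxp1 lie on both sides of 0.

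Across clusters, Tcf7 was highest in cluster 5 and lowest in cluster 7. Mean levels over hashtags with at least 20 cells were 219.7 ± 62.6 CPM in cluster 5 (SD, n = 7) and 180.3 ± 65.5 CPM in cluster 2 (n = 8). Cluster 1 followed with 152 ± 30.6 CPM and cluster 0 with 108 ± 31.7 CPM (n = 8 each). Cluster 6 had 76.6 ± 28.7 CPM and cluster 3 had 66.8 ± 34.9 CPM (n = 8 each). Cluster 8 had 58.0 ± 22.2 CPM (n = 5), cluster 4 had 39.7 ± 25.4 CPM (n = 6) and cluster 7 had 23.0 ± 22.2 CPM (n = 4). In this order only the gaps from cluster 1 to 0 and from 0 to 6 exceeded the pooled SD of the neighbours. That SD mixes both conditions and ignores that clusters share hashtags. Within hashtags, cluster 5 exceeded cluster 2 in 5 of the 7 that had both and cluster 1 in 7 of 7, and cluster 2 exceeded cluster 1 in 5 of 8. Cluster 0 exceeded cluster 6 in 7 of 8 hashtags, and cluster 6 exceeded cluster 3 in 5 of 8. The hashtags used differ between clusters: cluster 7 rests on Crep hashtags alone, and 4 of the 5 of cluster 8 were Cren. Among Cren hashtags alone, cluster 8 had the lowest mean of the ordered clusters, at 56.5 ± 25.3 CPM (n = 4), against 64.7 ± 26.2 CPM in cluster 4 (n = 2).

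Clusters 7 and 4, the lowest of the ordered clusters in mean Tcf7 over all hashtags used, were rich in cytotoxic genes. Cluster 7 had 20 Tcf7 UMIs in 592 cells. Over all its cells the granzyme gene Gzmb stood at 4158 CPM and Klrg1, a receptor of terminal effectors, at 593 CPM. Its exhaustion genes were mixed against all other cells. Havcr2, the gene of TIM-3, stood at 110 against 20.7 CPM and Lag3 at 89.7 against 72.2 CPM. Pdcd1, the gene of PD-1, stood at 15.8 against 58.1 CPM and the exhaustion factor Tox at 6.45 against 37.9 CPM. Cluster 4 had the highest Gzma, another granzyme gene, at 10111 CPM, and Klrg1 at 705 CPM. Cluster 8, with Pdcd1 at 520 CPM and Tox at 393 CPM, had Slamf6 at 49.5 CPM. Cluster 8 was low in Tcf7 and mixed in cytotoxic genes. Gzma at 949.6 CPM, Gzmb at 1106 CPM and Klrg1 at 80.5 CPM were below their levels in all other cells. Gzmk, also a granzyme gene, was higher, at 1098 against 668 CPM, and the cytotoxic gene Prf1 stood at 85.3 against 80.7 CPM. In thinned cells Tcf7 had a UMI in 35.8% of cluster 5 cells (95% Wilson interval 32.1% to 39.6%) and in 1.55% of cluster 7 cells (0.752% to 3.16%). Cluster 10 (153.6 CPM) and cluster 11 (30.8 CPM) each had 1 usable hashtag, of Cren. Cluster 9 had none, with a median of 1007 UMIs per cell and 16 Tcf7 UMIs in all.

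**Figure D4:**
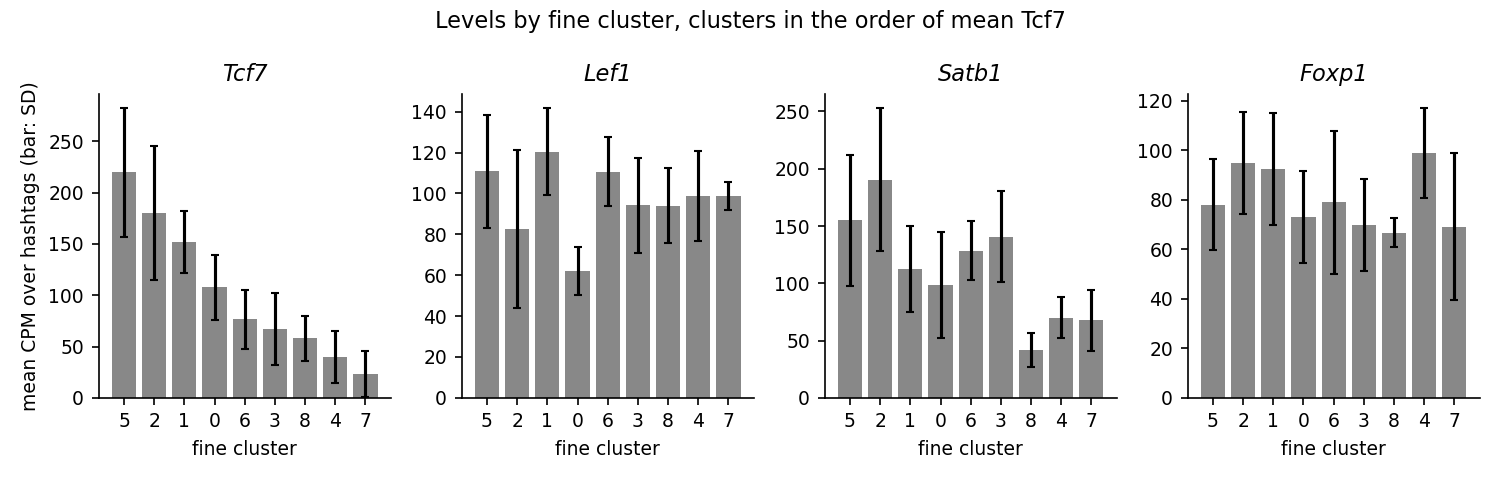
Mean CPM over hashtags with SD (y axis, from 0, with its own scale per panel) in 9 fine clusters (x axis), ordered in every panel by mean Tcf7. Tcf7 runs between 219.7 and 23.0 CPM by construction of the order; Lef1 is lowest in cluster 0 at 62.0 CPM, Satb1 lowest in cluster 8 at 41.5 CPM, and Foxp1 stays between 66.7 and 99.0 CPM.

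The paralog Lef1 did not follow this order. Among the ordered clusters, it ran between 62.0 ± 11.6 CPM in cluster 0 and 120.5 ± 21.3 CPM in cluster 1 (SD, n = 8 each). Lef1 had 98.9 ± 6.78 CPM in cluster 7 (n = 4), where Tcf7 was lowest. Among the same clusters, Satb1 was highest in cluster 2, at 190.5 ± 62.6 CPM (n = 8), and lowest in cluster 8, at 41.5 ± 15.0 CPM (n = 5). It stood at 141 ± 39.6 CPM in cluster 3 (n = 8), which was low in Tcf7. Foxp1 varied least among them, between 66.7 ± 5.82 CPM in cluster 8 (n = 5) and 99.0 ± 18.1 CPM in cluster 4 (n = 6). Clusters 9, 10 and 11 are left out of these ranges. In cluster 11, with 1 usable hashtag, Satb1 stood at 270 CPM, Lef1 at 23.1 CPM and Foxp1 at 108 CPM. Myb had at most 5 UMIs in any cluster.

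The genes whose cluster pattern was most like that of Tcf7 were Hadh, an enzyme of fatty acid oxidation (Pearson r = 0.947), Jun (0.910), Ccdc117 (0.898), Tgtp1 (0.891), Sgms1 (0.874) and Stat5b (0.860), out of 5605 genes. The measure was r over 11 clusters of mean log2(CPM + 10), and the points share hashtags, depth and 1 library. Stat5b, a signal transducer downstream of the IL-7 and IL-2 receptors, stood at 91.1 CPM in cluster 5, 103 CPM in cluster 2 and 47.6 CPM in cluster 7. Jun, an AP-1 subunit that also responds to tissue dissociation, stood at 1095 CPM in cluster 1 and 456 CPM in cluster 7. Lef1 (0.249), Satb1 (0.248) and Foxp1 (-0.05) were ranked 1599, 1603 and 3131. Over the 9 clusters of more than 200 cells, r with Tcf7 was 0.678 for Satb1, 0.38 for Foxp1 and -0.05 for Lef1. Havcr2 ranked last, at -0.969. These are descriptions of clusters made from the same genes.

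Within cells, 2 or more of Tcf7, Lef1, Satb1 and Foxp1 were seen at 2000 UMIs in 11.4% ± 2.27 of cells in Crep and 17.0% ± 5.04 in Cren (SD, n = 4), with overlapping hashtags. None of the 4 was seen in 53.0% ± 5.21 of cells in Crep and 44.2% ± 6.52 in Cren. All 4 together were seen in 3 of 3171 Crep and 7 of 3468 Cren cells. By cluster, 2 or more were detected in 21.5% of cluster 5 cells and 7.30% of cluster 7 cells.

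Cells with a Tcf7 UMI were set beside cells without one in the same hashtag, at 2000 UMIs each. The genes shown were chosen with results of these data known, and this is a description with no test. Il7r was detected in 80.4% ± 5.81 of cells with a Tcf7 UMI and 62.9% ± 10.4 of cells without (SD, n = 8 hashtags), higher in 8 of 8. Itgae was detected in 22.7% ± 7.86 and 15.0% ± 7.45 of them, also higher in 8 of 8. Other genes linked to tissue residency did not follow Itgae: Cxcr6 was detected in 52.6% and 53.0% (higher in 3 of 8), Itga1 in 16.7% and 16.6% (higher in 3 of 8) and Cd69 in 30.7% and 27.4% (higher in 6 of 8). Cytotoxic genes ran the other way. Gzma was detected in 36.6% ± 12.4 of cells with a Tcf7 UMI and 53.2% ± 16.4 of cells without, and Gzmk, a granzyme of early effector memory cells, in 45.3% ± 7.63 and 61.9% ± 12.1. Klrg1 was detected in 12.9% ± 7.46 and 25.2% ± 13.8. Each of these cytotoxic genes was lower in 8 of 8 hashtags. Of exhaustion genes, Havcr2 was detected in 1.80% ± 0.884 and 4.98% ± 3.48 (lower in 8 of 8). Pdcd1 was detected in 5.03% and 7.01% (lower in 6 of 8) and Tox in 2.91% and 5.27% (lower in 7 of 8).

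Gzmb was higher in Crep than in Cren on both sides of this split. It had a UMI in 75.6% of Crep and 34.2% of Cren cells with a Tcf7 UMI, and in 88.1% of Crep and 51.0% of Cren cells without one (means over 4 hashtags). Among the other factors, Satb1 was detected in 23.5% ± 7.33 of cells with a Tcf7 UMI and 18.2% ± 3.94 of cells without (SD, n = 8; higher in 7 of 8 hashtags). Lef1 was detected in 18.1% ± 3.03 and 16.0% ± 2.32 (higher in 7 of 8), and Foxp1 in 15.4% ± 4.41 and 15.0% ± 2.49 (higher in 4 of 8).

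**Figure D5:**
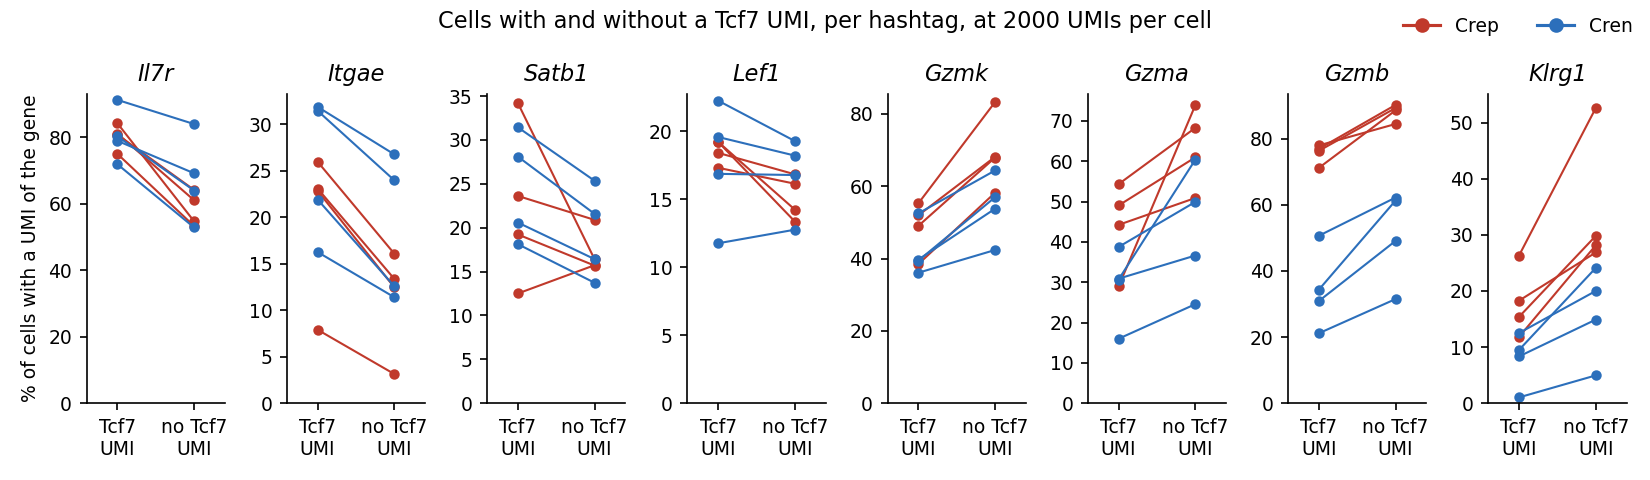
Percent of cells with a UMI of each named gene (y axis, from 0, own scale per panel) among cells with (left) and without (right) a Tcf7 UMI, thinned to 2000 UMIs; each line is 1 hashtag, Crep red and Cren blue. Il7r and Itgae are higher on the left in all 8 hashtags and Gzma, Gzmk, Gzmb and Klrg1 lower.

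Genes around these factors were taken from lists and read in the same fit over all cells, where the median log2 fold change of all 9653 genes was -0.00059, with 4813 positive and 4840 negative, and 11.1% had an unadjusted p under 0.05. Of 22 tested genes of TCF/LEF partners and the Wnt/beta-catenin pathway, 11 were positive and 11 negative (median -0.01), and none passed in edgeR, with 2 at an unadjusted p under 0.05. The smallest unadjusted p-values were those of the ubiquitin ligase genes Rnf43 (17.1 ± 2.08 CPM in Crep, 26.6 ± 7.47 CPM in Cren, edgeR adjusted p = 0.191) and Znrf3 (17.7 ± 5.75 and 12.8 ± 1.85 CPM, adjusted p = 0.401), both of which act on Wnt receptors. Next were Ctnnb1, the gene of beta-catenin (19.9 ± 2.199 CPM in Crep, 24.1 ± 2.13 CPM in Cren, adjusted p = 0.474), and Axin2, a target and inhibitor of the pathway (7.60 ± 2.27 and 10.2 ± 2.50 CPM, adjusted p = 0.564). Of 8 close family members, Foxp4 alone was tested (26.9 ± 2.46 CPM in Crep, 33.6 ± 3.19 CPM in Cren, log2 -0.32, adjusted p = 0.299).

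Of 15 other quiescence and memory factors, 5 were positive and 10 negative (median -0.14). Bcl6 rose and no other passed. Id3 stood at 10.2 ± 4.36 CPM in Crep and 29.4 ± 11.2 in Cren (SD over 4 hashtags; log2 -1.47, SE 0.36, edgeR adjusted p = 0.171), Bach2, a repressor of effector genes, at 41.2 ± 8.57 and 58.4 ± 6.61 CPM (adjusted p = 0.128), and Zeb1, a zinc finger repressor, at 57.1 ± 4.85 and 77.8 ± 12.5 CPM (adjusted p = 0.107). Of 16 stem-like and central memory surface and signalling genes, 13 were negative and 3 positive (median -0.42), and none passed, with 6 at an unadjusted p under 0.05. Of these 6, Ly6c2, a Ly6C gene, had the opposite sign (log2 1.24, SE 0.46, edgeR adjusted p = 0.398). It stood at 1916 ± 634 CPM in Crep and 814 ± 435 in Cren, with every Crep hashtag above every Cren hashtag. The groups did not overlap in either direction for 6.68% of the tested genes. Slamf6 stood at 13.2 ± 4.96 CPM in Crep and 36.0 ± 16.2 in Cren (log2 -1.45, SE 0.46, adjusted p = 0.307). Itga6, Cd27 and Icos, an integrin and a pair of costimulatory receptor genes, had log2 fold changes of -0.74, -0.44 and -0.56 (adjusted p = 0.181, 0.200 and 0.292).

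Of 20 effector and exhaustion factors, 9 were positive and 11 negative (median -0.22). Id2, which promotes effector differentiation, rose to 215 ± 27.8 CPM in Crep, against 148 ± 15.4 in Cren (SD over 4 hashtags; log2 0.54, SE 0.10, edgeR adjusted p = 0.0293). Batf, an AP-1 factor, fell to 88.0 ± 5.97 CPM in Crep, against 115 ± 5.35 in Cren (log2 -0.38, SE 0.08, adjusted p = 0.0494). Rora, an orphan nuclear receptor, stood at 138 ± 26.0 and 231 ± 39.7 CPM (log2 -0.73, adjusted p = 0.0779), and Stat4, the IL-12 signal transducer, at 180 ± 11.7 and 224 ± 14.3 CPM (log2 -0.32, adjusted p = 0.0779). Of 17 chromatin partners, 8 were positive and 9 negative (median -0.0021), and none passed, with 1 at an unadjusted p under 0.05. The smallest p was that of Ezh2, the Polycomb methyltransferase, at 28.8 ± 1.30 CPM in Crep and 34.6 ± 1.41 in Cren (adjusted p = 0.350). The factors of each list were chosen with results of these data known.

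Marker lists of other cell types were summed per hashtag beside the Tcf7 difference. CD4 T cell markers (6 of 6 in the table) summed to between 124 and 163 CPM in Crep and between 146 and 211 CPM in Cren. Cd4 itself rose to 6.81 ± 1.44 CPM in Crep, against 0.276 ± 0.325 in Cren (SD over 4 hashtags; log2 4.36, SE 0.51, edgeR adjusted p = 5.1e-04). B and plasma cell markers (4 of 8) summed to 9.49 to 27.9 CPM in Crep and 15.1 to 38.8 CPM in Cren, and Cd79a and Ms4a1 were not analysed here. Myeloid markers (9 of 10) summed to 244 to 298 CPM in Crep and 257 to 279 CPM in Cren. NK and innate lymphoid markers (6 of 8) summed to 56.2 to 74.4 CPM in Crep and 51.5 to 76.9 CPM in Cren. Gamma-delta T cell markers (5 of 6) summed to 47.8 to 130 CPM in Crep and 70.7 to 166 CPM in Cren. Epithelial and stromal markers (3 of 8) were at 8.05 to 15.5 CPM in Crep and 15.8 to 21.6 CPM in Cren. How often such sums separate by condition was not counted. Erythroid and mast cell markers (1 of 6) were at up to 0.863 CPM in Crep and up to 3.09 CPM in Cren. Their part in the Tcf7 difference was not tested, nor was that of the mitochondrial share. The labelled cell type had its defining genes in every cluster, with Cd8a between 482 and 1748 CPM and Cd3e between 772 and 1785 CPM. Trac ran between 129 and 219 CPM and Cd8b1 between 415 and 1310 CPM. Cd8b1 was lowest in cluster 9 (415 against 981 CPM in all other cells), cluster 11 (513 against 983 CPM) and cluster 2 (696 against 1021 CPM).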

How the data were processed

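Colon CD8 T cells of 8 hashtags were sequenced as 1 10x Genomics 5′ v2 library, per the labels' protocols. Raw UMI counts per gene and cell were used as deposited by the authors, and the annotation deposited by the authors gave hashtag, condition, fine cluster and mitochondrial percent. The submitters' processing notes name the mm10 build and, among tools, Seurat 4.3.0, Cell Ranger 7.0.0 and bcl2fastq 2.20.0.422. The values show a filter before deposit: no cell had fewer than 500 genes or more than 3.0% mitochondrial UMIs. No cell was removed and no doublet caller was run; 115 cells not given their hashtag by both classifiers were left out in an alternative.

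Sums of counts over the cells of a hashtag entered edgeR 4.0.16 (TMM scaling, filterByExpr, robust quasi-likelihood fit). The contrast was Crep minus Cren, and p-values were adjusted over all genes (Benjamini-Hochberg, 0.05). This was done over all cells and within each fine cluster with 20 cells in 3 hashtags per condition. DESeq2 1.42.0 and limma 3.58.1 served as alternatives. CPM uses plain totals; levels and shares carry an SD, log2 fold changes an SE. Shares were computed at 2000 UMIs per cell with exact permutation tests. Scripts were tested on simulated counts. Depth per hashtag was 2635241 to 4201265 UMIs. Genes were placed with GENCODE vM21 and RefSeq. All 5 factors are reported in full. From each list the text names up to 4 genes of smallest p plus any that passed. Ly6c2 was named beyond this rule, for its opposite sign. The 6 genes most like Tcf7 are also named. The 5 genes, the lists and the tests were chosen with earlier results of these data known. The clustering was the authors' own, and its settings were not used.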

Additional observations from a re-analysis of the deposited data

Results flagged for a closer look

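In groups of 4 hashtags, a value was looked at again where its gap to the nearest other hashtag took up most of the group's range by Dixon's criterion. This held for 4 of 76 groups; chance gives about 1 in 20. Lef1 in fine cluster 2 reached 175 CPM in Crep 4, on 12 UMIs, against 61.6 to 76.7 CPM in the other Crep hashtags. Lef1 in cluster 7 reached 109 CPM in Crep 1, on 29 UMIs. Satb1 in cluster 4 was down at 36.7 CPM in Crep 2, on 9 UMIs. Tcf7 in cluster 6 reached 133 CPM in Cren 2, on 20 UMIs in 44 cells, against 75.6 to 80.3 CPM in the other Cren hashtags. The only difference of condition effects between clusters that was tested, cluster 1 minus cluster 0, passed for none of the 4 factors.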

How the results depend on the processing

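Over all cells Tcf7 was negative under all 17 alternatives, from -1.31 to -0.66. It passed in 5 of them: with DESeq2 (-1.19), without fine cluster 7 (-1.03), without clusters 4 and 7 (-0.81, chosen after seeing the data), with the cluster mix held fixed (-0.66) and without Crep 4; over hashtags left out it ran from -1.31 to -1.01. Within clusters, Tcf7 ran over hashtags left out from -0.87 to -0.59 in cluster 0, -1.04 to -0.75 in cluster 2 and -0.97 to -0.62 in cluster 5; in cluster 0 it did not pass with DESeq2 (-0.72) and in cluster 2 it passed with no filter on low counts (-0.91). The cause was not tested. The count of genes called, 59, was 147 with DESeq2 (which tested 12789 genes), 37 with limma-voom, 26 without cluster 7, 35 without clusters 4 and 7, 17 with the mix held fixed and 14 to 121 with 1 hashtag left out.

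Values near 0 changed sign, none of them past the threshold. Lef1 over all cells became 0.025 with limma-voom, 0.013 without clusters 4 and 7 and 0.050 with the mix held fixed, and ran from -0.16 to 0.13 over hashtags left out. With no filter on low counts Foxp1 was -0.0036 in cluster 2 and 0.0048 in cluster 3, and Lef1 was 0.024 in cluster 3 (0.0016 with DESeq2). Over hashtags left out, Foxp1 ran from -0.18 to 0.17 in cluster 0, -0.060 to 0.10 in cluster 2 and -0.22 to 0.16 in cluster 3; Satb1 from -0.61 to 0.18 in cluster 0, -0.29 to 0.24 in cluster 1 and -0.090 to 0.22 in cluster 3; and Lef1 from -0.24 to 0.11 in cluster 3 and -0.27 to 0.15 in cluster 6. As points of share, Crep minus Cren, Lef1 was 0.413 and Foxp1 -0.201 at 1000 UMIs per cell, and Foxp1 -1.48 and Myb -0.205 unthinned; over hashtags left out Myb ran from -0.029 to 0.057 and Foxp1 from -0.119 to 2.40. The 90 alternative cluster levels moved by less than their SD. Myb rests on 28 UMIs in all, against 2168 to 3169 for the other 4 factors. The annotation numbers hashtags 1 to 4 in both conditions, but nothing says that equal numbers share a host or day. Same-numbered hashtags deviated together in 3 of 4 pairs (correlations -0.043 to 0.18). Crep 2, 3 and 4 each correlated best with the Cren hashtag of the same number, and Crep 1 with Cren 2. The main fits did not take the numbers as pairs, and these correlations do not settle whether they are. With the number as a replicate block, added after the results were known, Tcf7 was -1.21 (adjusted p = 0.241), Lef1 0.020, and 118 genes were called.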
